A study of Homo sapiens with 11 samples.

Results

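SHOX2, ISL1, TBX18, TBX3 and TBX2 are 5 transcription factors that mark the sinus node and the canal tissue of the developing heart. They were chosen by name, with earlier results of these data known, and all 5 were found among the 36601 genes of the deposited count matrices. In the embryonic heart SHOX2, a homeodomain protein, keeps the sinus node from taking on the working atrial programme, in part by opposing NKX2-5. ISL1, a LIM-homeodomain protein, marks the second heart field and stays on in pacemaker cells, while TBX18 forms the sinus horns and is also a factor of the epicardium and of stromal cells. TBX3 and TBX2 are T-box repressors that hold chamber genes off: TBX3 acts in the node, the conduction system and the atrioventricular canal, and TBX2 in the canal and the outflow tract.

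The cells were H9, a human embryonic stem cell line, grown into heart tissue and measured by single-cell RNA sequencing on day 42.5. The study had 3 groups: tissue cultured in 2D, stable chambered cardioids (self-organised heart organoids with a cavity) given PD173074, and the same kind of cardioids without it. PD173074 is a small molecule that inhibits FGF receptor kinases. The labels give neither its dose nor when it was added, and all groups come from 1 cell line. The levels below are UMI counts of a gene scaled to a fixed total per sample or cluster (CPM), where a UMI is a tag that marks 1 captured RNA molecule.

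The files hold 11 libraries, with 3 of the 2D culture, 3 of cardioids with PD173074 and 5 of cardioids without it. Libraries of 1 group shared at least 99.3% of their cell barcodes in 16 of 16 pairs, against at most 0.737% in the 39 pairs between groups. They are therefore repeat runs of the same droplets, so each group is 1 sample, its runs were averaged, and no test between groups was possible. Totals ranged from 12266166 to 46304366 UMIs per run, and the groups held 8183 cells (2D), 3534 cells (without PD173074) and 4597 cells (with PD173074) after filtering. Median UMIs per cell were 4313, 5060 and 6648 in the same order, so shares of cells with a UMI are given after thinning every cell to 2000 UMIs. Intervals are exact 95% intervals and cover counting error only. A gene is called higher or lower where both bounds of its interval exceed a 2-fold difference and the larger level is at least 10 CPM, and the share of all genes so called is given as the background of each count. The comparison with PD173074 and the comparison with the 2D culture share the cardioids without PD173074.

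Cells were clustered with the 5 factors left out of the clustering genes, and 11 clusters scored high on a list of 14 cardiomyocyte genes. Of these, 9 are called cardiomyocyte-like, and clusters 1 and 11 are kept apart because KDR, an endothelial marker, and MYH11, a smooth muscle marker, stood among their respective leading genes. Other clusters are called stromal-like, cartilage-like, epithelial-like, endoderm-like and endothelial-like from at least 3 markers each. A cluster set against the others is a description, since its genes formed it. In the cardioids without PD173074, only 1553 of 3534 cells lay outside clusters mostly made of another sample, so results are also given for each sample's own clusters, and the part this played in the differences was not tested.

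SHOX2 spanned the widest range of the 5 factors over the 3 samples. SHOX2 (ENSG00000168779) lies on the minus strand of chromosome 3 at positions 158095954 to 158106503 (GRCh38). In the 2D culture it measured 0.261, 0.179 and 0.252 CPM over all cells in runs 1 to 3. Without PD173074 the 5 runs gave 7.69, 7.67, 7.77, 7.67 and 6.51 CPM. With PD173074 the 3 runs gave 45.1, 45.3 and 45.1 CPM. The 2D culture was near the detection limit (10 UMIs per run on average) and the cardioids with PD173074 were highest. Runs of a sample hold the same droplets, so here and below their spread covers sequencing only and not variation between samples. The difference in SHOX2 with PD173074 against without it was 2.60 on the log2 scale (2.36 to 2.84).

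ISL1 (ENSG00000016082), on the plus strand of chromosome 5 at positions 51383391 to 51394738, followed the same order at a lower spread. Its levels over all cells were 1.0, 0.828 and 0.986 CPM in the 2D runs. Without PD173074 it measured between 7.36 and 8.39 CPM, with a median run of 8.18 CPM. With PD173074 it measured 19.6, 18.8 and 19.99 CPM, again the highest of the 3 samples. It was above the cardioids without PD173074 by 1.28 on the log2 scale (1.04 to 1.53).

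TBX18 (ENSG00000112837), on the minus strand of chromosome 6 at positions 84687351 to 84764519, had another order. It measured 9.09, 8.35 and 8.12 CPM in the 2D runs, and between 3.35 and 4.75 CPM in the 5 runs without PD173074. With PD173074 it measured 12.6, 13.1 and 13.8 CPM. The cardioids without PD173074 were thus lowest and those with it highest, by 1.66 on the log2 scale (1.33 to 2.0).

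TBX3 (ENSG00000135111) lies on the minus strand of chromosome 12 at positions 114670254 to 114684164 and was highest where SHOX2 was not. Over all cells it measured 76.2, 75.2 and 77 CPM in the 2D runs and 61.3, 62.3 and 65.0 CPM in the runs with PD173074. Without PD173074 the 5 runs gave 242, 244, 208, 240 and 247 CPM. Every run without PD173074 stood above every run of both other samples, and the level with PD173074 was lower by -1.93 on the log2 scale (-2.0 to -1.86).

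TBX2 (ENSG00000121068), on the plus strand of chromosome 17 at positions 61399896 to 61409466, varied least. It measured 72.6, 72.0 and 73.0 CPM in the 2D runs and between 70.2 and 81.2 CPM without PD173074, and these ranges overlapped. With PD173074 it measured 40.4, 41.6 and 40.9 CPM, below both, by -0.91 on the log2 scale against the cardioids without it (-1.01 to -0.81), an interval that reaches beyond 2-fold only at its edge.

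**Figure D1:**
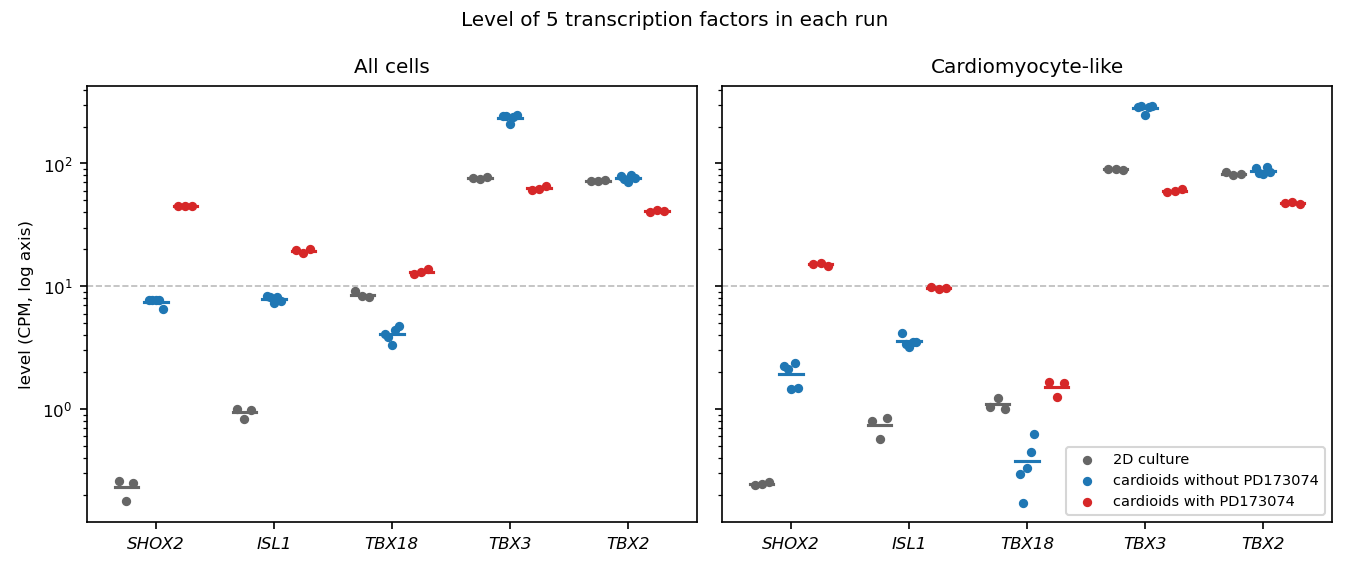
Level of each factor in CPM (log axis) in every run, over all cells (left) and over the cardiomyocyte-like clusters (right). Points are runs of the same droplets, bars are their means, and the dashed line is the 10 CPM needed for a call. SHOX2 stands at 45.1, 7.43 and 0.231 CPM over all cells with PD173074, without it and in 2D, while TBX3 stands at 62.9, 239 and 76.1 CPM.

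Over all cells, then, 3 of the 5 factors (SHOX2, ISL1 and TBX18) were higher with PD173074 than without it and 1 (TBX3) was lower. Of all 10807 genes at the same level, 3.2% were higher and 1.84% lower. Against the 2D culture, cardioids without PD173074 had 1 factor higher, TBX3 by 1.65 on the log2 scale (1.59 to 1.72), of the 2 that reached 10 CPM, with 1.45% of all genes higher and 0.398% lower. Cardioids with PD173074 had 2 higher than the 2D culture, SHOX2 by 7.66 (6.78 to 8.72) and ISL1 by 4.37 (3.93 to 4.86), with 5.93% of all genes higher and 2.59% lower. In these sums over all cells, fewer cells of a type and less RNA per cell cannot be told apart, and the clusters below give each separately.

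The stretch upstream of the start could be read for SHOX2, ISL1 and TBX18, the 3 factors that were higher with PD173074, from RefSeq promoters of GRCh38.p14. TBX3 and TBX2 are named only. The bases before the start that lie outside the gene's own exons are shown 5′ to 3′ on the gene's strand, in lower case with any AAGTG (the core of NKX2 sites) in capitals. They are 193 bases for ISL1 (chr5:51383198-51383390, plus strand) and 250 bases for TBX18 (chr6:84764599-84764848, minus strand), and none for SHOX2, whose whole window is exonic in the annotation.
ISL1: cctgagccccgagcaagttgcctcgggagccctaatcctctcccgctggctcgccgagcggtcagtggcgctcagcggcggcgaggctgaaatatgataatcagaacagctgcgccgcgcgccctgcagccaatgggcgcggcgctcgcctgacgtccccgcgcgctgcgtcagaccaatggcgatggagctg
TBX18: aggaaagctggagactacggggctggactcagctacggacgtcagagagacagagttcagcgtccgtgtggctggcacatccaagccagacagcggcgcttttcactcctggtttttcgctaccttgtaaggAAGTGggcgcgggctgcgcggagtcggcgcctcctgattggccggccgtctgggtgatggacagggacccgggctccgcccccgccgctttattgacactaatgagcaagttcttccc
In the full window of 250 bases, TBX18 held 1 AAGTG, 118 bases before the start. ISL1 held 1 AGATAA (which GATA factors bind), 31 bases before the RefSeq start in the exonic stretch, and SHOX2 held neither. None of the 3 windows held GGTGTGA (a T-box motif) or TAATTA (a homeodomain site). Both strands were searched, and with at most 1 match in a window no matches overlapped. Of 34943 promoter windows of the same length, 37.6% held AAGTG, 9.2% AGATAA, 4.3% TAATTA and 2.8% GGTGTGA. The windows of ISL1 and TBX18 were rich in CG dinucleotides (27 and 20, against a median of 11 over all promoters), and that of SHOX2 held 6. A match is a description of letters and not a measured site.

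Within the cardiomyocyte-like clusters (5233, 2798 and 2882 cells in 2D, without and with PD173074) SHOX2 and TBX3 again differed between the cardioids in opposite directions, while the level without PD173074 was above that of 2D for both, below 10 CPM for SHOX2. SHOX2 measured 0.246 CPM in 2D (runs 0.240 to 0.253), 1.99 without PD173074 (1.44 to 2.36) and 15.1 with it (14.5 to 15.4). TBX3 measured 89.5 CPM in 2D (89.2 to 89.9), 286 without PD173074 (247 to 295) and 59.9 with it (58.5 to 61.6). These run ranges cover repeat sequencing of the same droplets only. With PD173074 against without it the differences were 2.93 on the log2 scale for SHOX2 (2.40 to 3.52) and -2.25 for TBX3 (-2.35 to -2.16). Of the 3 factors at 10 CPM, 1 was thus higher and 1 lower, where 2.36% and 2.01% of all 10582 genes were.

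The third, TBX2, measured 82.6 CPM in 2D, 87.9 without PD173074 and 47.9 with it, lower with PD173074 by -0.87 on the log2 scale (-1.0 to -0.75), which passed no call. ISL1 measured 0.739, 3.61 and 9.69 CPM and TBX18 1.09, 0.382 and 1.52 CPM in the same order, both under the level needed for a call. Against the 2D culture, cardiomyocyte-like cells without PD173074 had TBX3 higher by 1.67 (1.60 to 1.75), where 1.28% of all genes were higher and 0.239% lower. TBX2 differed from 2D by 0.09 there (-0.01 to 0.19), a value that falls to -0.01 under other scalings of the totals. Those scalings move the median of all genes in this comparison from 0.09 to -0.01, and TBX3 stood at 1.57 under them. Cardiomyocyte-like cells with PD173074 had SHOX2 higher than 2D by 5.94 (4.80 to 7.40), where 5.23% of all genes were higher and 2.76% lower, with TBX3 at -0.58 and TBX2 at -0.78.

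With clusters 1 and 11 counted among the cardiomyocyte-like cells, 3 factors were higher with PD173074 in place of 1. SHOX2 then stood at 60.3 against 7.47 CPM (3.01 on the log2 scale), ISL1 at 18.8 against 4.79 CPM (1.97) and TBX18 at 12.8 against 0.993 CPM (3.67). TBX3 stayed lower (-2.10), with 2.59% of all genes higher and 1.92% lower. In the samples' own clusters (1479 cells without and 2796 with PD173074), SHOX2 measured 1.26 and 14.9 CPM (3.59) and TBX3 380 and 59.4 CPM (-2.68), with 3.04% of all genes higher and 2.66% lower. Over all cells in their own clusters, TBX2 too was lower with PD173074 (-1.16, -1.29 to -1.04), beside TBX3 (-2.71), and SHOX2 (5.35), ISL1 (1.45) and TBX18 (5.03) were higher, with 5.23% of all genes higher and 3.2% lower. This choice leaves cluster 11, with 64.6% of its SHOX2 UMIs, out of the sample without PD173074. It also leaves out cluster 8, with 53.4% of its TBX18 UMIs, while cluster 11 stays in the sample with PD173074. The wider SHOX2 and TBX18 differences are thus in part set by the choice of clusters.

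SHOX2 was concentrated in 1 cluster, number 11, whose leading genes were CDH20, a cadherin, ADARB2, an RNA-binding protein of the adenosine deaminase family, and SHOX2 itself. It held 500 cells with PD173074 (10.9% of that sample), 79 cells without it (2.24%) and 2 cells in 2D. Those cells carried 67.3% of the SHOX2 UMIs with PD173074 and 64.6% of those without it. Within the cluster the SHOX2 level was 298 CPM with PD173074 (281 to 316, runs 297 to 298) and 318 CPM without it (259 to 385, runs 295 to 376), and these overlapped. ISL1 stood at 67.3 and 85.2 CPM there, TBX3 at 66.1 and 61.6 CPM and TBX2 at 65.5 and 67.8 CPM, with overlapping intervals for each. TBX18 stood at 71.8 CPM with PD173074 (63.4 to 80.8) and at 30.5 without it (14.9 to 57.2), a difference of 1.21 on the log2 scale (0.30 to 2.28). None of the 5 factors was called between the samples inside cluster 11, where 0.00963% of all genes were higher and 0.0289% lower. Its cells had a median of 6499 UMIs with PD173074 and 3556 without it, so calls had less depth to rest on there.

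Cluster 11 kept its muscle genes and also held genes of other cell types. Its 14 cardiomyocyte genes summed to 25195 CPM with PD173074, against 28384 CPM in the other cardiomyocyte-like cells of that sample, and 1 of the 14 was lower. Of the 8 listed smooth muscle or pericyte genes 7 were measured, and 3 were higher, with MYH11 at 164 against 6.14 CPM, ACTG2 at 38.8 against 2.02 CPM and PDGFRB at 17.0 against 5.10 CPM. That list summed to 682 against 331 CPM, and to 768 CPM in the cluster's cells without PD173074. Of 10 stromal genes 8 were measured and 5 were higher, with sums of 1088 and 517 CPM. The 7 epicardial genes summed to 4.28 CPM, with WT1, UPK3B and MSLN at 0, although TBX18 is also an epicardial factor. The part of these genes in the TBX18 and SHOX2 levels of the cluster was not tested, and as a cluster these values are a description, where 2.43% of all genes were higher and 2.51% lower.

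**Figure D2:**
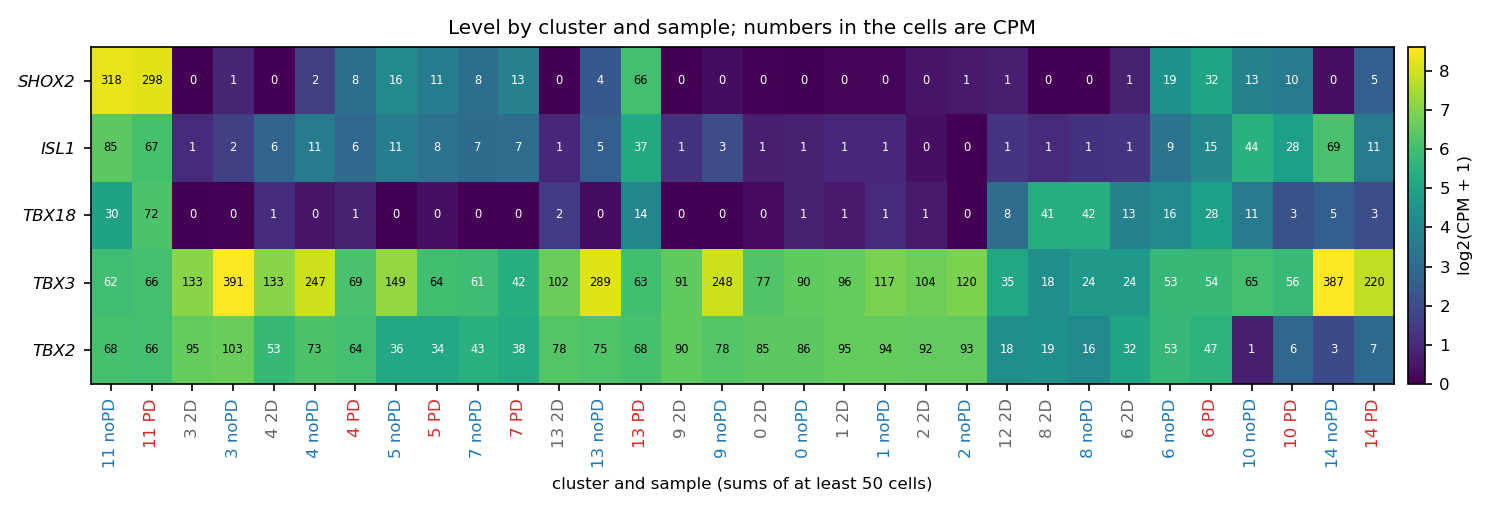
Level of the 5 factors in sums of at least 50 cells of 1 cluster and 1 sample, coloured by log2(CPM + 1) with the rounded CPM printed in each square. Columns are clusters by number with the sample (grey 2D, blue without PD173074, red with it). SHOX2 is brightest in cluster 11 (318 and 298 CPM), and TBX3 in cluster 3 without PD173074 (391 CPM) and cluster 14 (387 CPM without PD173074).

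Without cluster 11, SHOX2 over all remaining cells was 16.4 CPM with PD173074 and 2.67 CPM without it, a difference of 2.62 on the log2 scale (2.23 to 3.05). The SHOX2 call thus held without that cluster, where 3.36% of all genes were higher and 1.87% lower. TBX18 did not keep its call, at 6.49 against 3.78 CPM and below the level needed. ISL1, at 14 against 6.82 CPM (1.04, 0.77 to 1.32), did not keep it either.

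SHOX2 outside cluster 11 was spread thinly. In the cardiomyocyte-like clusters 4, 5 and 7 it measured 7.57, 11.3 and 12.5 CPM with PD173074 and 2.13, 15.7 and 7.67 CPM without it. The log2 differences were 1.76 in cluster 4 (0.31 to 3.70), -0.52 in cluster 5 (-1.41 to 0.50) and 0.55 in cluster 7 (-0.88 to 2.46), so the higher SHOX2 of the whole class with PD173074 was not seen in cluster 5, and the interval for cluster 7 includes 0. These clusters were led in turn by TFPI2, PANCR and CNTNAP5, by NR2F1, NPPA and NR2F1-AS1, and by ZNF536, FGF12 and LINC01182. Epithelial-like cells of the same sample, which are not heart muscle, gave 10.4 CPM and endoderm-like cells 5.34 CPM. After thinning, 1.98% of cardiomyocyte-like cells with PD173074 had a SHOX2 UMI (1.48 to 2.59, median 6220 UMIs before thinning) against 0.951% of epithelial-like cells (0.309 to 2.20, median 9865). These intervals overlap. Before thinning 4.77% of the cardiomyocyte-like cells had a SHOX2 UMI.

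Cluster 13, dividing cells led by TOP2A, MKI67 and KIF20A, had more SHOX2 than these clusters with PD173074. It measured 65.8 CPM of SHOX2 with PD173074 (53.6 to 79.9) in 160 cells and 4.18 CPM without it (1.14 to 10.7) in 134 cells. ISL1 was also higher there with PD173074, at 37.0 against 5.02 CPM (2.81 on the log2 scale, 1.51 to 4.49). TBX18 gave 22 UMIs against a rounded 0, a ratio of 4.53-fold when the 0 is set to the floor of 3 UMIs. TBX3 was lower, at 63.4 against 289 CPM (-2.19), so that 3 factors were higher and 1 lower in dividing cells, where 0.653% and 0.776% of all genes were. Leaving cluster 13 out of the cardiomyocyte-like class left SHOX2 at 10.7 against 1.85 CPM (2.54) and TBX3 at -2.26, while TBX18 was at 0.412 against 0.394 CPM.

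ISL1 was also found outside heart muscle. Epithelial-like cells (cluster 10, led by SFRP2, GABRP and TCIM) measured 27.9 CPM of ISL1 with PD173074 (24.0 to 32.3) and 44.0 without it (29.4 to 64.9), and held 25.4% of the ISL1 UMIs with PD173074. Endoderm-like cells (cluster 14, led by SERPINA1, TTR and PHGR1) measured 69.2 CPM in 74 cells without PD173074 and 10.7 CPM in 55 cells with it. That was the lower direction, by -2.71 on the log2 scale (-3.85 to -1.71), opposite to the difference over all cells, in a cluster where 2.69% of all genes were higher and 5.02% lower. Cluster 14 held 28.5% of the ISL1 UMIs without PD173074 in 2.09% of its cells.

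TBX18 belonged to the stromal-like and cartilage-like cells in the 2D culture and to cluster 11 in the cardioids with PD173074. Stromal-like cells (cluster 8, led by COL8A1, ITGA11 and MAP3K7CL) measured 40.7 CPM in 2D (36.5 to 45.4) and 41.6 CPM without PD173074 (30.9 to 55.6). They held 86.9% and 53.4% of the TBX18 UMIs of those samples, and only 1 such cell was found with PD173074. SHOX2 was not seen in them, with 0 UMIs in the 704 such 2D cells before thinning, where 3 UMIs would be 0.368 CPM. With PD173074, 55.7% of TBX18 UMIs lay in cluster 11 and 32.6% in cluster 6. Cluster 6, called cartilage-like and led by MATN4, COL24A1 and TCF21, measured 28.2 CPM of TBX18 and 31.5 CPM of SHOX2 with PD173074, against 12.9 and 0.743 CPM in 2D. At a finer resolution cluster 6 split into a stromal-like group led by SMR3B, MSX1 and TCF21, and a cartilage-like group. With PD173074 the stromal-like group had 30.8 CPM of TBX18 and 36.7 CPM of SHOX2, and the cartilage-like group 17.5 and 10.1 CPM. The stromal-like group held 474 cells with PD173074 and 8 in 2D, and the cartilage-like group 124 and 231. The levels of cluster 6 with PD173074 and in 2D thus came mostly from different groups of cells.

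TBX3 without PD173074 was carried by cluster 3, led by PTGER3, a prostaglandin receptor, and CRHBP, a binding protein of corticotropin-releasing hormone, with TBX3 itself among its leading 10 genes. It held 1345 of the 3534 cells (38.1%) and 60.7% of the TBX3 UMIs of that sample. TBX3 measured 391 CPM there (377 to 405, runs 335 to 402), TBX2 103 CPM and SHOX2 0.908 CPM. Only 13 cells with PD173074 lay in this cluster. In the 70 cells of the 2D culture in it, TBX3 stood at 133 CPM (94.9 to 179).

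TBX3 differed between the cardioids inside several clusters that both samples shared. It was lower with PD173074 in cluster 4 (69.0 against 247 CPM, -1.84 on the log2 scale, -2.04 to -1.64), where 0.26% of all genes were higher and 0.385% lower. It was lower in cluster 13 as given above, and in cluster 5 it stood at 63.7 against 149 CPM (-1.23, -1.53 to -0.91), which passed no call where 0% of all genes were higher and 0.0771% lower. In cluster 7 it stood at 41.6 against 61.0 CPM (-0.57), where 0.00975% of all genes were higher and 0.00975% lower. In cluster 11 the difference was 0.09. It was 0.02 in the cartilage-like cells, where 0.0869% of all genes were higher and 0.348% lower, and -0.20 in the epithelial-like cells, where 0.0204% were higher and 0.051% lower. The intervals of these 4 differences span 0. Endoderm-like cells had high TBX3 in both samples, 220 against 387 CPM (-0.82, -1.08 to -0.55).

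TBX3 was similar across 5 of the muscle clusters of the 2D culture. In clusters 0, 1, 2, 9 and 13 it ranged from 76.5 to 104 CPM and TBX2 from 78.0 to 95.1 CPM. TBX3 stood at 133 CPM in clusters 3 and 4, from 70 and 83 cells. Cluster 12, led by MYL2, MYH7 and NPPB, genes of ventricular muscle, was lower, at 34.8 CPM of TBX3 and 18.4 CPM of TBX2. Stromal-like cells had 18.1 CPM of TBX3 and cartilage-like cells 24.3 CPM in 2D. TBX2 was low in epithelial-like and endoderm-like cells, with 6.12 CPM in epithelial-like cells with PD173074 and 2.85 to 6.76 CPM in endoderm-like cells, and did not differ by over 0.20 on the log2 scale between cardioids in clusters 4, 5, 6, 7, 11 and 13. Clusters 5 and 7, with 33.8 and 38.4 CPM of TBX2 with PD173074, held 22.8% and 14.9% of the cells with PD173074 against 5.35% and 3.34% without it, and the part of this in the lower TBX2 level over all cardiomyocyte-like cells was not tested.

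**Figure D3:**
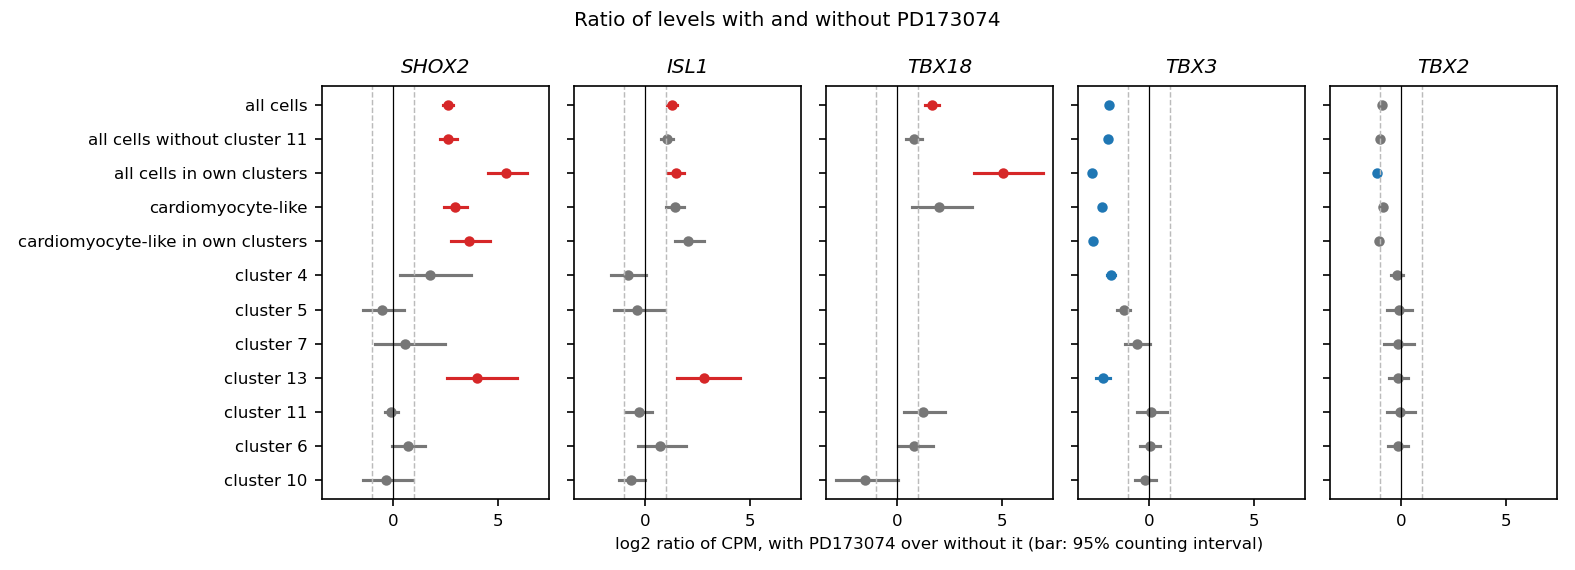
Log2 ratio of CPM with PD173074 over without it for each factor, over all cells, over subsets and inside single clusters, with 95% counting intervals as bars. The solid line marks no difference and the dashed lines 2-fold. Red is called higher, blue called lower and grey not called. Pairs with fewer than 4 UMIs in either sample are left out. SHOX2 spans 5.35 (all cells in own clusters) to -0.52 (cluster 5). The own clusters hold cluster 11 with PD173074 but not without it. TBX3 is near 0 in clusters 6, 10 and 11 and at -1.84 and -2.19 in clusters 4 and 13.

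Shares of cells followed the levels. After thinning, TBX3 was found in 15.1% of cardiomyocyte-like cells in 2D (14.1 to 16.1), 34.5% without PD173074 (32.7 to 36.4) and 10.8% with it (9.63 to 12). Before thinning the shares were 28.3%, 53.1% and 26.0%. Cluster 3 reached 45.2% without PD173074 (42.5 to 48.0). TBX2 was found in 14.6%, 15.5% and 8.40% in the same order, against 0.507% of epithelial-like cells with PD173074. In cluster 11 with PD173074, 39.8% of cells had a SHOX2 UMI (35.4 to 44.5), 11.8% ISL1 and 8.30% TBX18, and before thinning 66.8%, 32.3% and 17.2%. Without PD173074 the SHOX2 share in cluster 11 was 44.8% (31.3 to 58.5) of 56 cells. TBX18 was found in 6.62% of stromal-like cells in 2D (4.92 to 8.79).

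SHOX2, ISL1 and TBX18 were seen in the same cells more often than their shares give when all muscle clusters are pooled. Among 3098 thinned cells with PD173074 (cardiomyocyte-like clusters with 1 and 11), 28 had both SHOX2 and ISL1 where 7.11 were expected from the separate shares, a ratio of 3.89 (2.62 to 5.69). SHOX2 and TBX18 met in 23 cells against 3.38 expected (6.81, 4.32 to 10.2). ISL1 and TBX18 met in 4 against 1.32 (2.78, 0.826 to 7.76), an interval that includes 1. Inside cluster 11 the ratios for these pairs were 1.08, 1.43 and 0.730, with intervals that all include 1. Within cluster 11 an excess of cells with both was thus not detectable at this depth.

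TBX3 and TBX2 did not track each other from cell to cell in these sparse counts. In the pooled muscle cells the 2 met 1.14 times the number from their separate shares with PD173074 (0.802 to 1.60), 1.01 times without it (0.858 to 1.19) and 1.06 times in 2D (0.907 to 1.24). In cluster 3 the ratio was 0.932 (0.760 to 1.14). SHOX2 and TBX3 met in 31 cells with PD173074 against 26.4 expected (1.19, 0.798 to 1.67). Without PD173074 they met in 4 cells against 11.6 expected (0.361, 0.0937 to 0.881), an interval below 1. This ratio pools clusters that differ in both genes. Of the 35 pooled cells with SHOX2 in that sample, 25 lay in cluster 11. TBX3 was found in 10.4% of cells of cluster 11 there, against 32.8% of the pooled cells. The part of this in the ratio was not tested. Over all unthinned cells, 277 cells with PD173074 (6.03%) had at least 2 of SHOX2, ISL1 and TBX18, and 38 had all 3. Without PD173074 29 cells (0.809%) and in 2D 3 cells (0.0326%) had at least 2. After thinning the count with PD173074 was 55 cells (1.29%).

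**Figure D4:**
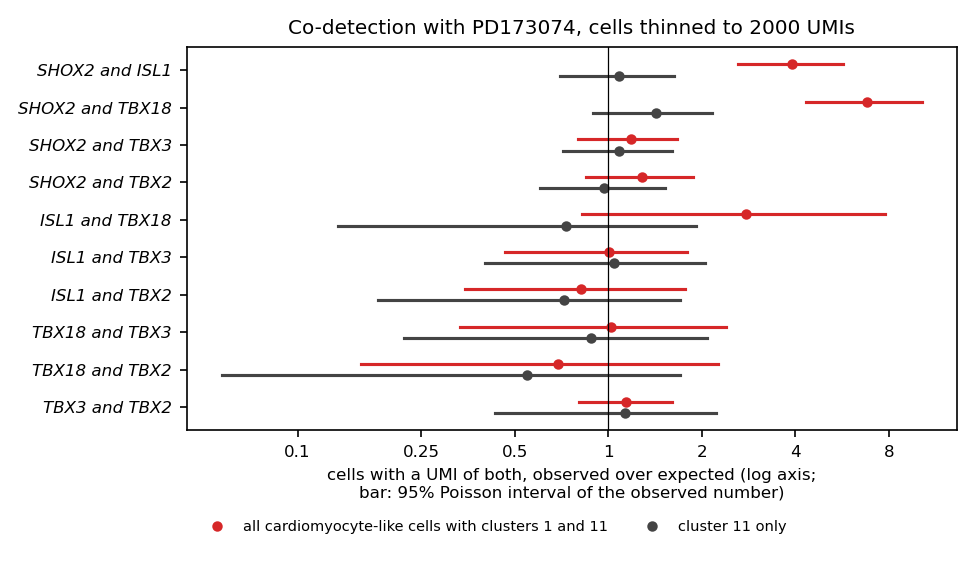
Cells with a UMI of both factors over the number expected from their separate shares, for the 10 pairs, with PD173074 and cells thinned to 2000 UMIs (log axis; bars are 95% Poisson intervals). Red points pool the cardiomyocyte-like clusters with 1 and 11, and dark points are cluster 11 alone. SHOX2 with ISL1 (3.89) and SHOX2 with TBX18 (6.81) stand above 1 in the pooled cells, and every interval of cluster 11 includes 1.

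Cells with a SHOX2 UMI differed from cells without one in other pacemaker and heart genes. With PD173074, 238 thinned muscle cells had SHOX2 and 2861 had none, at median depths of 6573 and 6270 UMIs. BMP4, a signalling ligand of the sinus node region, was found in 39.8% of the former (33.6 to 46.4) and 9.03% of the latter (7.99 to 10.1). RGS6, a brake on G-protein signalling in pacemaker cells, was in 65.1% and 37.0%, and CACNA1D, a pacemaker calcium channel, in 95.5% and 77.1%. NKX2-5, a factor of working muscle, was in 35.8% (29.6 to 42.2) and 60.1% (58.3 to 61.9), and TBX20, a T-box factor of chamber muscle, in 37.4% and 67.1%. HCN4, a pacemaker current channel, was in 25.7% (20.2 to 31.7) and 22.4% (20.9 to 24.0), with overlapping intervals. The muscle gene TNNT2 was in 95.9% and 96.5%, and the smooth muscle gene MYH11 in 14.9% and 1.67%.

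Of the 238 cells with SHOX2, 186 lay in cluster 11. Within it, these 186 cells with SHOX2 and 280 without had BMP4 in 43.4% (36.3 to 51.0) and 32.6% (27.0 to 38.3), RGS6 in 69.3% and 69.7%, and NKX2-5 in 32.1% and 34.8%, all with overlapping intervals. Outside it, in the pooled cardiomyocyte-like clusters, the 52 cells with SHOX2 had BMP4 in 26.9% (15.6 to 41.0) against 6.5% (5.57 to 7.52), and TBX20 in 46.8% (32.2 to 60.5) against 69.7% (67.8 to 71.4). NKX2-5 there was at 48.7% (34 to 62.4) against 62.9% (61.0 to 64.8), which overlap. The pooled clusters differ in these genes. Cluster 13, with about 10 of the 52 cells, had BMP4 at 80.8 CPM and TBX20 at 443 CPM. Cluster 4 had 11.2 and 977 CPM. The part of this in the differences was not tested.

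Cells with an ISL1 UMI (93 with PD173074) leaned the same way, with RGS6 in 61.5% against 38.5% and BMP4 in 29.9% against 10.8%. Cells with TBX18 (44) had the lowest share of NKX2-5 among the 3. NKX2-5 was in 9.09% of them (2.53 to 21.7) against 59.0% of other cells, TWIST1, a mesenchymal factor, in 19.7% against 1.58%, and MYH11 in 25% against 2.36%. Their median depth was higher, 8419 against 6272 UMIs before thinning. Of the 44 cells with TBX18, 39 lay in cluster 11, as did 55 of the 93 cells with ISL1. MYH11 was among the leading genes of that cluster. The parts of depth and of cluster 11 in these differences were not tested.

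Cells with TBX3 differed from other cells in canal genes, also inside cluster 3. Of its thinned cells without PD173074, 584 had a TBX3 UMI and 708 had none, at median depths of 5224 and 5173 UMIs. BMP2, the ligand that induces canal fate, was in 75.2% of the former (71.5 to 78.6) and 57.2% of the latter (53.5 to 60.9). MSX2, a homeodomain factor of the canal, was in 58.5% and 41.0%, RSPO3, a WNT enhancer, in 88.3% and 77.6%, and HAS2, which makes the hyaluronan of cardiac jelly, in 33.6% and 21.2%. None of these pairs of intervals overlapped. VCAN, another matrix gene of the cushions, was equal within error (94.0% and 94.8%), as were TGFB2 (22.3% and 24.3%) and BAMBI (47.9% and 47.5%). SMPX, a chamber gene, was also more frequent with TBX3 (46.0% against 34.6%), as was the muscle gene MYL7 (83.2% against 73.3%).

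The 2D culture gave differences in the same direction. There 1027 muscle cells had TBX3 and 5560 had none, with BMP2 in 51.2% (48.1 to 54.3) against 42.6% (41.3 to 44.0), MSX2 in 46.2% against 38.5% and RSPO3 in 67.4% against 59.4%. For TBX2 in the pooled muscle cells without PD173074 (450 cells against 2436), RSPO3 was in 73.5% (69.2 to 77.6) against 64.3% (62.3 to 66.2). BMP2 (55.9% against 51.1%) and MSX2 (43.7% against 40.4%) overlapped. The pooled clusters differ in TBX3 and TBX2, and the parts of cluster and depth in these differences were not tested.

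**Figure D5:**
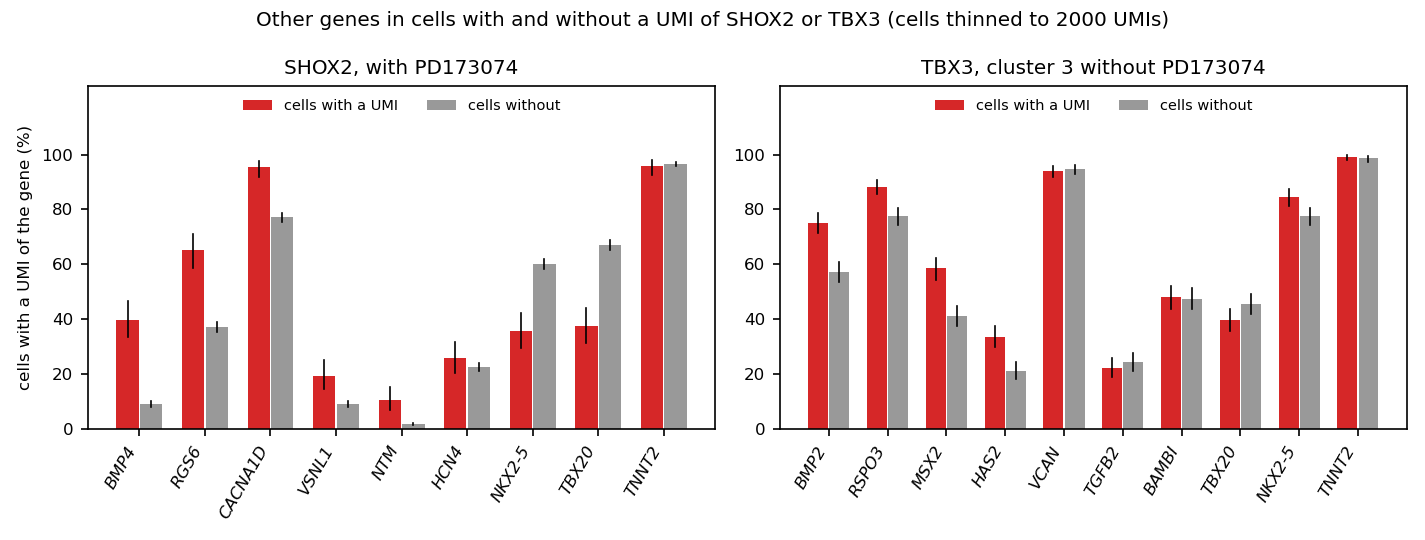
Percent of thinned cells with a UMI of each gene, in cells with (red) and without (grey) a UMI of SHOX2 (left, muscle cells with PD173074) or TBX3 (right, cluster 3 without PD173074), with exact 95% binomial intervals. BMP4 stands at 39.8% against 9.03% by SHOX2, and BMP2 at 75.2% against 57.2% by TBX3, while TNNT2 is between 95.9% and 99.2% in all.

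In cardiomyocyte-like cells, 6 of the 14 measured sinus node genes were higher with PD173074 and 0 were lower, with a median log2 difference of 0.82 against -0.07 over all 10582 genes. Of all genes 2.36% were higher and 2.01% lower, the background of every list in this comparison. The lists were chosen with earlier results of these data known, so the list counts here and below are a description only. Among the 6 were BMP4 (2.90), RGS6 (1.84), GNAO1, a G-protein subunit (1.47), VSNL1, a neuronal calcium sensor (1.21), and POPDC2, a membrane protein of the conduction system (1.18). HCN4, at 122 against 69.7 CPM (0.80), passed no call. Of the 8 measured canal genes, 5 were lower and 1 was higher, with a median of -2.32. HAS2 (-3.87), RSPO3 (-3.39), BMP2 (-2.39), MSX2 (-2.33) and VCAN (-2.31) were lower, and TBX20 (1.08), which stands in 3 of the lists, was higher.

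The chamber genes that TBX2 and TBX3 are known to repress did not move as 1 group. Of 4 measured, NPPA, the atrial natriuretic peptide, was higher with PD173074 (2.43) and KCNJ2, the inward rectifier channel, was lower (-2.97), while SMPX (-0.63) passed no call. GJA5 and GJA1, the fast gap junction genes, did not reach 10 CPM. Of 14 other heart transcription factors, NR2F1 (3.29) and NR2F2 (2.24), which set atrial identity, and HEY1 (1.53) and TBX20 were higher, and the ventricular factors IRX3 (-2.67) and IRX4 (-2.45) were lower. NKX2-5 stood at 545 against 918 CPM (-0.75). Of 3 measured T-box relatives, only TBX20 was called, with TBX5 at 0.78 and MGA at 0.07, and of the second heart field genes only FGF10 was measured (0.58).

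Against the 2D culture, cardiomyocyte-like cells without PD173074 had 4 of 13 sinus node genes higher (GNAO1 2.45, RGS6 2.31, CNTN5 1.59 and CACNA1D 1.27) and 0 lower. Of 8 canal genes 1 was higher and 0 were lower, where 1.28% of all genes were higher and 0.239% lower. That gene was TBX20, which is also listed among the other heart factors and the T-box relatives. Without PD173074 it stood at 367 CPM in cluster 3, where TBX3 was high, and at 747 CPM in cluster 4. With PD173074, 9 of 14 sinus node genes were higher than in 2D, and 5 of 8 canal genes were lower and 1 higher, where 5.23% of all genes were higher and 2.76% lower. Inside the sample with PD173074, cluster 11 against the other cardiomyocyte-like cells had 5 of 15 sinus node genes higher and 0 lower, 3 of 10 canal genes higher and 2 lower, and 0 of 13 heart factors higher and 5 lower. Of all genes 2.43% were higher and 2.51% lower there, again as a description.

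The gene most like each factor across 32 sums of 1 cluster and 1 sample is given by Pearson's r of log2(CPM + 1) over 13299 genes. For SHOX2 these were NXPH1 (0.952), LINC01880 (0.880) and TMEM132C (0.879). For ISL1 they were PID1 (0.863), CACNA2D3 (0.858) and ALDH1A1 (0.848). For TBX18 they were EFEMP1 (0.878), RORB (0.866) and PRRX1 (0.866), and for TBX3 AP1AR (0.807), INO80C (0.789) and TMEM123 (0.781). TBX2 was most like TBX2-AS1 (0.938), its antisense neighbour, and was also like SGCB (0.908). TBX2-AS1 differed with PD173074 by -0.53 in cardiomyocyte-like cells, and no source states whether counting used strand, so reads of TBX2 and TBX2-AS1 may not be told apart. Among the factors themselves, SHOX2 and ISL1 were most alike (0.80), and TBX18 and TBX3 most unlike (-0.56). The sums share libraries, clusters and depth, so these values describe the data only.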

How the data were processed

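Single-cell RNA libraries of H9-derived heart tissue were processed by the submitters; their processing notes name Cell Ranger 7.0.0 and the build hg38, and, per the file headers, the deposited matrices hold whole UMI counts per gene and barcode. No source states the dose or timing of PD173074 or whether counting used strand. The 5 genes and all gene lists were chosen with earlier results of these data known. Genes named from a list are its called members and those a result turns on, at most 6 per list where called, and likeness names up to 3 genes per factor; a few genes that these rules name are not reported here.

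Barcodes found in every run of a group, with at least 1000 UMIs, 500 genes and at most 30% mitochondrial UMIs in the mean of the runs, were kept. Runs of a group shared their barcodes, so they were averaged and each group is 1 sample. Counts were summed per sample and cluster, scaled to CPM and compared with exact conditional binomial intervals at 95%. A group at 0 was given a floor of 3 counts. Clusters came from scanpy 1.11.5 and leidenalg 0.10.2 (2000 variable genes without the 5 factors, 30 components, 15 neighbours, resolution 0.6). Cardiomyocyte-like clusters had a mean log2(CPM + 1) of at least 8 over the 14 listed genes, a limit set after seeing the data. The doublet caller Scrublet marked 0 barcodes and so had not worked, and no cells were removed as doublets. Positions are from GENCODE on GRCh38. The call rule, tested on simulated data for each of the 3 comparisons, recovered 50 of 50 genes at each of 3-, 4- and 8-fold and 0 of 50 at 1.5-fold. The simulated counts had counting error only, as the intervals assume, and the changed genes had a pooled level of at least 30 CPM. The simulation therefore cannot show how the rule behaves with variation between samples. Nor does it cover lower levels, such as SHOX2 in cardiomyocyte-like cells. Alternatives covered scaling (edgeR 4.0.16 for TMM), the level floor, the fold, filters, clustering and each run left out.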

Additional observations from a re-analysis of the deposited data

Results flagged for a closer look

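In 13 sets of 5 runs without PD173074, 6 values stood apart from the other 4 runs by Dixon's criterion, which chance alone meets in about 1 in 20 sets. Run 3 without PD173074 was the shallow run, with 3592 barcodes (others 3773 to 3799), a total of 12266166 UMIs (others 23074862 to 24495291) and a median of 2891 UMIs per barcode (others 5219 to 5508). In the same run TBX3 was lowest, at 208 CPM over all cells (others 240 to 247) and at 247 CPM over cardiomyocyte-like cells (others 287 to 295). Run 5 without PD173074 had the lowest SHOX2 level over all cells, at 6.51 CPM (others 7.67 to 7.77). These runs hold the same droplets, so the values differ in sequencing and not in cells. Leaving out any run changed no call.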

How the results depend on the processing

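Each group is 1 sample, and the depth limits ISL1 and TBX18 most, since both lay under 10 CPM in cardiomyocyte-like cells. No paired analysis was possible because the numbered libraries of a group are runs of the same droplets and no test was made. No result that passed a call changed direction under any alternative. TBX2 without PD173074 against 2D lay between -0.01 and 0.27 in cardiomyocyte-like cells, and TBX18 with PD173074 against without it went from 1.97 to -0.05 (-1.85 to 1.80) without cluster 13. That last value rests on 7 and 6 UMIs after rounding the mean of the runs, and the unrounded levels, 0.412 and 0.394 CPM, differ slightly in the other direction. The 603 values with 1 run left out all stayed close to the values given.

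TBX3 without PD173074 against 2D in cardiomyocyte-like cells (1.67) was 1.57 with TMM, 1.58 with median-of-ratios scaling, 1.55 with at most 15% mitochondrial UMIs, at resolutions 0.3 and 1.0 and with the factors among the variable genes, 1.58 in cells with 5 UMIs of the cardiomyocyte list, 2.11 in own clusters and 1.53 with clusters 1 and 11. With PD173074 against without it (-2.25) it was -2.15, -2.14, -2.15 and -2.16 under the filter, the 2 resolutions and the variable genes, -2.08 in cells with 5 UMIs, -2.68 in own clusters and -2.10 with clusters 1 and 11. SHOX2 was 3.59 in own clusters, and against 2D 8.52 in cells with 5 UMIs and 8.24 with clusters 1 and 11.

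Factors higher in cardiomyocyte-like cells with PD173074 (1 against either sample) numbered 2 and 2 without mitochondrial and ribosomal genes in the totals, 0 and 0 at a floor of 20 CPM, and 3 and 3 in cells with 5 UMIs and with clusters 1 and 11. Against 2D they were 2 at 5 CPM and 2 with no floor. Without PD173074 against 2D they were 3 with no floor, and over all cells 3 at 5 CPM and 3 with no floor. Over all cells with PD173074 they were 1 against both samples at 20 CPM, and 1 against the other cardioids without cluster 11. At 1.5-fold, 2 factors were lower with PD173074 than without it and 1 than in 2D, in both cell sets. Own clusters over all cells gave 2, where 3.2% of all genes were lower. Against the other cardioids, 2.59% of all genes were higher with clusters 1 and 11, and 3.36% over all cells without cluster 11. With the changed totals, 283 genes were higher against the other cardioids and 579 against 2D. Counts of all genes changed in other settings too, as given below, so these factor counts describe the settings only.

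Counts of all genes beyond 2-fold were 463, 159 and 851 in cardiomyocyte-like cells (with against without PD173074, without against 2D, with against 2D) and 545, 195 and 924 over all cells. With no floor they were 774, 350, 1599, 1007, 734 and 2388, and at 1.5-fold 1068, 461, 1804, 1182, 493 and 1736, in that order. Without PD173074 against 2D over all cells the count was 297 at 5 CPM, 109 at 20 CPM and 520 in own clusters. Own clusters gave 317 for it in cardiomyocyte-like cells and 920 with against without PD173074 over all cells.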
